A study of Mus musculus with 3 samples.

Results

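Transcripts of antibody-secreting cells were followed in single-cell libraries of thymic stroma that had been depleted of CD45+ cells. The genes were Jchain, Mzb1, the heavy chain constant genes Ighm, Igha, Ighg2b and Ighg2c, the kappa light chain constant gene Igkc and the lambda variable gene Iglv1, which make 8 of the 32293 features in the tables. They had been chosen by their uneven spread over barcodes in these same libraries, so their concentration in few barcodes is given as a description and not as a test. Within them, barcodes called as cells that held at least 10 Jchain UMIs (unique molecular identifiers, here counted transcripts) are named Jchain-rich, and there were 61 of them among 17677 called barcodes.

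There were 3 libraries, 1 from each group, all from thymi of untreated 20-month-old C57BL/6 mice. The Foxn1Lin female and Foxn1Lin male libraries came from mice in which Cre driven by Foxn1, the transcription factor that specifies thymic epithelium, had switched on a tdTomato reporter, and the wild type library, from males, carried no tracing allele. Between 10 and 15 thymi were pooled for a library, cells were depleted of CD45+ leukocytes on magnetic columns and sorted, and the wild type label names CD45-PECAM1+ cells in its cell type field while its title names CD45- cells. The protocol text names female mice for every library, although 2 are labelled male. With 1 library a group there was no replicate check of any difference between libraries. Genotype, sex, sort and library cannot be told apart, and the intervals below cover counting error only.

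Plasma cells are the end stage of the B cell lineage and secrete 1 antibody, built from 2 identical heavy and 2 identical light chains. J chain, the product of Jchain, links IgM into pentamers and IgA into dimers. Mzb1 encodes a chaperone of the endoplasmic reticulum that helps assemble IgM. The thymic medulla is known to house B cells and plasma cells.

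The libraries held 8616 called barcodes and 53366016 UMIs (Foxn1Lin female), 3583 and 33386621 (Foxn1Lin male) and 5478 and 61258534 (wild type), with a median of 4675, 7431 and 7947 UMIs a barcode. Barcodes that were not called as cells held a further 19288883, 4940758 and 6398226 UMIs. Barcodes with at least 2 UMIs of Epcam, Pecam1 or Pdgfra were taken as thymic epithelial cells (TEC), endothelial cells (EC) or fibroblasts (FB), those past several of these limits as mixed and the rest as none. Pairs of libraries shared between 3 and 14 called barcode sequences. Levels are UMIs per 1000000 UMIs of the same set of barcodes (CPM).

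Jchain, the gene that defined the rich barcodes, stood at 115 CPM (95% Poisson interval 112 to 118) in the Foxn1Lin female library, 38.1 (36.0 to 40.3) in the Foxn1Lin male, and the wild type had 91.4 (89.0 to 93.8). Only 241, 54 and 171 called barcodes had any Jchain UMI. The Jchain-rich barcodes numbered 39, 5 and 17. They made up 0.453% of called barcodes (exact Clopper-Pearson 95% interval 0.322 to 0.618) in the Foxn1Lin female, 0.140% (0.0453 to 0.325) in the Foxn1Lin male, and the wild type had 0.310% (0.181 to 0.496). Just inside the limit, 4, 0 and 4 barcodes held 10 to 15 Jchain UMIs, and just outside it 5, 5 and 8 barcodes held 5 to 9. No uncalled barcode reached the limit, the highest holding 4, 7 and 7 Jchain UMIs. The richest barcode of each library held 621, 767 and 1316 Jchain UMIs, and the one in the Foxn1Lin male carried 60.3% of all Jchain UMIs of that library.

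Mzb1, the assembly chaperone, was detected in fewer barcodes than Jchain. Its level was 25.7 CPM (24.3 to 27.0) in the Foxn1Lin female, 3.95 (3.31 to 4.69) in the Foxn1Lin male, and the wild type had 8.82 (8.09 to 9.59). It was detected in 97, 12 and 45 called barcodes, among them 39 of 39, 5 of 5 and 12 of 17 Jchain-rich ones. The highest Mzb1 count of the Foxn1Lin female library, 139 UMIs, lay in a barcode with 0 Jchain UMIs, 13101 Igkc UMIs and 1946 Ighg2b UMIs. Reads of Mzb1 are uncertain where Spata24, annotated on the same strand, overlaps it.

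**Figure D1:**
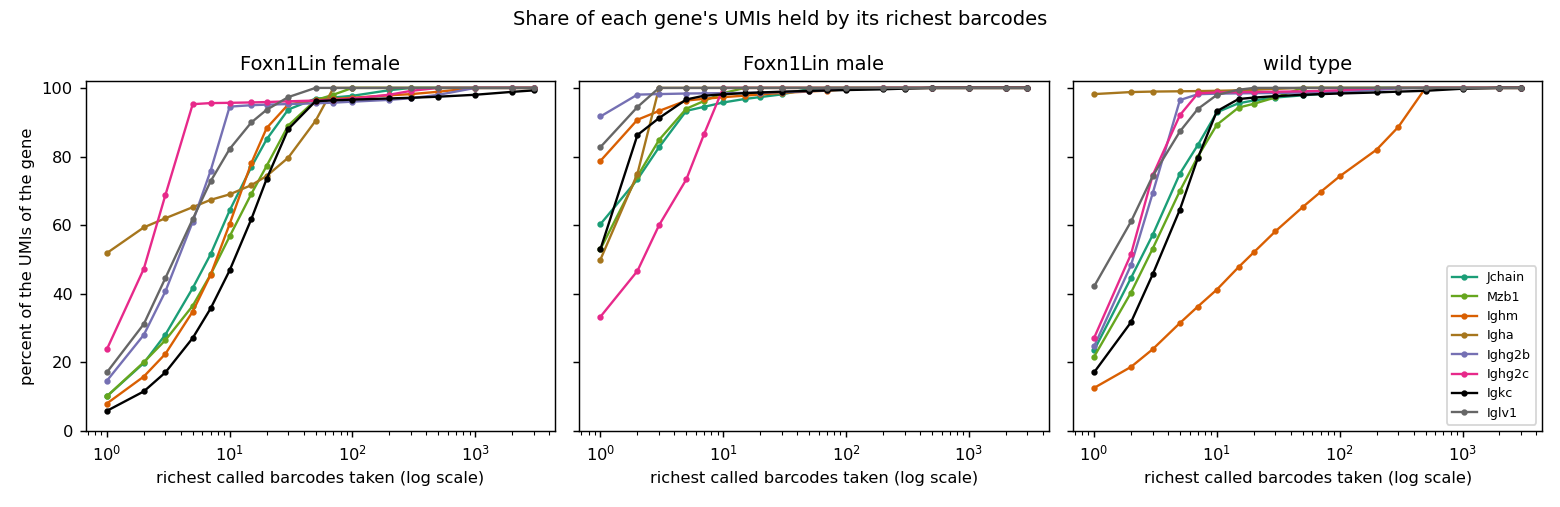
Cumulative share of the called UMIs of each of the 8 genes (y axis, percent) held by its richest barcodes (x axis, number of barcodes, log scale), 1 panel a library and 1 line a gene. Most lines pass 90% within 50 barcodes. The Ighm line of the wild type rises slowest and needs 322 barcodes to reach 90%.

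The 8 genes shared this concentration. In the Foxn1Lin female library, 8 of 8 had at least 90% of their UMIs in the richest 1% of called barcodes (87 barcodes), against 6.17% of all genes with at least 100 UMIs. In the Foxn1Lin male the count was 6 of the 6 with at least 100 UMIs, against 2.45% of genes, and in the wild type 7 of 8, against 4.53%. As the genes had been chosen for this pattern, nothing is read from these counts beyond the exception. The exception was Ighm in the wild type, with 66.6% of its UMIs in the richest 1%. For genes seen in few barcodes the measure reaches its ceiling, as for Iglv1, detected in 38, 3 and 20 barcodes and at 100% in each library.

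Barcodes rich in immunoglobulin but poor in Jchain were found as well. Genes of the immunoglobulin loci, 392 in all, held 5% or more of the UMIs in 44, 7 and 16 called barcodes, of which 6, 2 and 1 were not Jchain-rich. The union with the Jchain-rich set, 45, 7 and 18 barcodes, is called Ig-rich below. It held 95.6%, 96.8% and 96.0% of all immunoglobulin UMIs of called barcodes. The median depth of the Jchain-rich barcodes was 19401, 11746 and 20431 UMIs, with ranges of 2532 to 55032, 4502 to 45325 and 589 to 99744, and immunoglobulin made up a median of 28.1%, 52.1% and 27.5% of it. The share ranged from 1.35% to 68.8% in the Foxn1Lin female, from 8.17% to 71.5% in the Foxn1Lin male, and the wild type had values from 0.00512% to 57.4%.

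Each rich barcode was led by 1 heavy chain. In 60 of the 61 Jchain-rich barcodes a single constant gene took at least 90% of heavy constant UMIs, and in 49 it took at least 99%. Ighm, the constant gene of IgM, led 26 of 39 barcodes in the Foxn1Lin female, 3 of 5 in the Foxn1Lin male and 3 of 17 in the wild type. Ighg2b led 7, 2 and 5 barcodes. Ighg2c, the IgG2a-type gene of C57BL/6 mice, led 4, 0 and 7. Igha, which encodes the IgA heavy chain, led 1, 0 and 1, and Ighe, that of IgE, led 1 in the Foxn1Lin female only. The remaining wild type barcode had no heavy chain UMI.

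**Figure D2:**
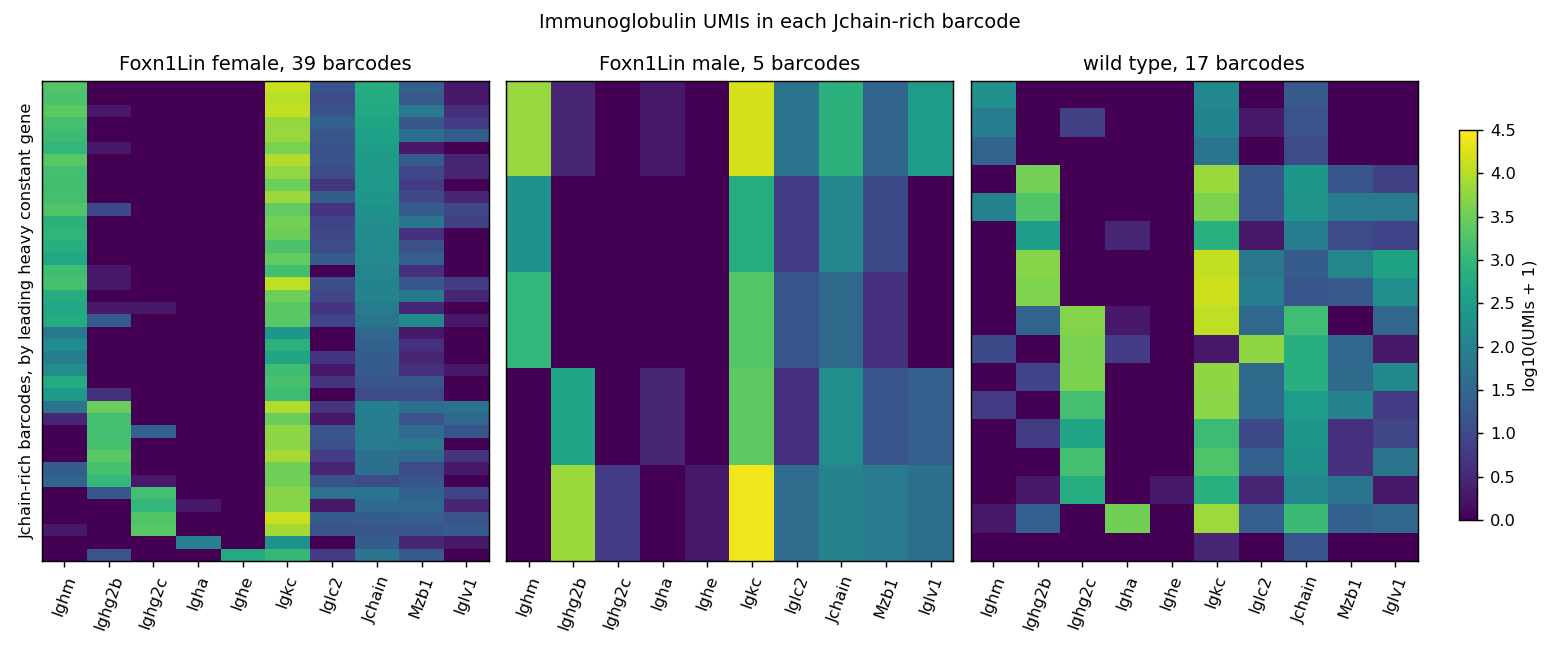
UMIs of heavy constant genes, light chain genes, Jchain and Mzb1 (columns) in each Jchain-rich barcode (rows), coloured by log10(UMIs + 1), 1 panel a library. Rows are grouped by their leading heavy constant gene and each row is bright in 1 heavy column, except the last wild type row, which has none. Ighm rows fill the top of the Foxn1Lin female panel with 26 of 39, while Ighg2b and Ighg2c rows fill most of the wild type panel with 12 of 17.

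Ighm (chr12:113418558-113422730, minus strand, GRCm38) had the widest range between libraries of the 8 genes in the share held by the richest 1% of barcodes, from 66.6% to 98.7%. Its level in called barcodes was 541 CPM (535 to 547), 241 (236 to 246) and 24.8 (23.5 to 26.1) in the 3 libraries (female, male, wild type). In uncalled barcodes it stood at 179 (173 to 185), 240 (227 to 255) and 656 CPM (636 to 676), so the wild type had the lowest level in called barcodes and the highest in uncalled ones. The 3 Ighm-led Jchain-rich barcodes of the wild type held 10, 13 and 17 Jchain UMIs. Of these, 1 had 589 UMIs in all, 1 had 1134 UMIs of which 55.5% were mitochondrial, and the third had 26766 UMIs of which 0.310% were immunoglobulin. No called barcode of that library held more than 191 Ighm UMIs, while the highest count in 1 barcode was 2320 in the Foxn1Lin female and 6336 in the Foxn1Lin male.

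Ighg2b (chr12:113302965-113307933, minus strand) varied least across libraries among the 4 heavy chain genes, at 387 CPM (381 to 392), 214 (209 to 219) and 329 (325 to 334). In the Foxn1Lin male, 91.7% of its UMIs lay in 1 barcode with 6556 of them. Ighg2c (chr12:113285325-113288932, minus strand) reached 166 CPM (162 to 169) in the Foxn1Lin female and 274 (270 to 279) in the wild type. In the Foxn1Lin male it had 15 UMIs in all called barcodes, 0.449 CPM (0.251 to 0.741), against 25.9 CPM (21.6 to 30.8) in uncalled barcodes, where 1 barcode held 41 UMIs. Reads of Ighg2b and Ighg2c can be mistaken for each other, so 120 bases near the end of both coding sequences (minus strand, GRCm38 transcripts) are set side by side with their 37 differing bases in capitals.
Ighg2b: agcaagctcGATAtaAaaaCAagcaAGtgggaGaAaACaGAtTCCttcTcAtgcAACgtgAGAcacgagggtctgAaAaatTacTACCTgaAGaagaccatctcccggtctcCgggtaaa
Ighg2c: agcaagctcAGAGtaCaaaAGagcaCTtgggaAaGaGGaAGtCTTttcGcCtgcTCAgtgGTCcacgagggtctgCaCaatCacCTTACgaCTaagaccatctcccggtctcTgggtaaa
Over the aligned coding bases the genes were 85.9% identical. Ig-rich barcodes led by either of them held at most 27 UMIs of the other.

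Igha (chr12:113254830-113260236, minus strand) was carried by very few barcodes. It stood at 3.50 CPM (3.02 to 4.04), 0.120 (0.0326 to 0.307) and 57.9 (56.0 to 59.8). In the wild type, 98.2% of its UMIs, 3480, lay in 1 mixed-class barcode that also held 1184 Jchain UMIs. The single Igha-led barcode of the Foxn1Lin female had 97 Igha UMIs among 2532, with 14.8% mitochondrial UMIs. Ighe, outside the 8 genes, had 561 UMIs in 1 Foxn1Lin female barcode and 93 elsewhere among called barcodes of that library, against 1 and 2 UMIs in the Foxn1Lin male and wild type libraries. Ighd, Ighg1 and Ighg3 led no Jchain-rich barcode.

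Jchain was also compared between isotypes, with no test. Among the barcodes with 5% or more immunoglobulin, which were not chosen by Jchain, the median Jchain count in the Foxn1Lin female was 139 UMIs (1 to 621) in 27 led by Ighm and 37 (0 to 87) in 15 led by an IgG gene. In the wild type it was 217 UMIs (0 to 1316) in 13 led by an IgG gene, with 302 (121 to 1316) for Ighg2c and 50 (0 to 241) for Ighg2b. The 2 wild type barcodes of this set led by Ighm held 13 and 17, in barcodes of only 589 and 1134 UMIs. The single Igha-led wild type barcode of this set held 1184. In the Foxn1Lin male it was 35 (3 to 767) in 5 led by Ighm, of which 2 had only 1026 and 1235 UMIs in all. The 2 led by Ighg2b in that library held 100 and 166. As a share of each barcode's UMIs, the median Jchain level was 0.798% for Ighm and 0.232% for IgG in the Foxn1Lin female, 0.487% and 1.95% in the Foxn1Lin male and 2.02% and 1.20% in the wild type. The ranges of IgM and IgG barcodes overlapped in each library on both scales, and those of IgG overlapped between the Foxn1Lin female and the wild type. Jchain was at 0 UMIs in 3 barcodes with much immunoglobulin, which made up 64.0% and 62.4% of UMIs (Foxn1Lin female) and 40.5% (wild type). These 3 were led by Ighg2b or Ighg2c, as were barcodes with up to 1316 Jchain UMIs.

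Igkc (chr6:70726435-70726966, plus strand), the only kappa constant gene of the mouse, was the most abundant transcript of the set by UMIs. Its level was 4425 CPM (4407 to 4443), 1449 (1436 to 1462) and 1351 (1342 to 1360). It led the light chains of 60 of the 61 Jchain-rich barcodes, with at least 95% of light constant UMIs in each of the 60. The other was a wild type barcode of 99744 UMIs with 1 Igkc UMI, 5647 UMIs of Iglc2 and 883 of Iglc3, led by Ighg2c with 3854 UMIs. It was also the deepest of the Jchain-rich barcodes, and beside them it held 123 UMIs of the 5 TEC markers and 98 of the T cell markers.

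Igkc was also detected in the most barcodes of the 8 genes in each library. At least 1 Igkc UMI was found in 54.5% of called barcodes of the Foxn1Lin female, 11.1% of the Foxn1Lin male and 21.9% of the wild type. With each barcode thinned to 2000 UMIs the shares were 26.2%, 3.66% and 6.33%. In EC, a class that should lack the gene, the share was 51.6%, 7.31% and 16.8% before thinning and 26.8%, 1.80% and 4.71% after it. In TEC it was 70.3%, 21.6% and 32.6% before and 25.0%, 4.94% and 5.94% after. The Foxn1Lin female library also stood apart in red cell transcripts. The sum of 4 hemoglobin transcripts was 2841 CPM in its barcodes that were not Jchain-rich, against 270 and 88.1 in the Foxn1Lin male and wild type, and 50.3 CPM in its Jchain-rich barcodes. Its median depth was the lowest of the 3. Their part in the Igkc share was not tested.

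Iglv1 (chr16:19085017-19085500, minus strand), a variable segment of the lambda locus, did not follow lambda constant genes. It stood at 5.58 CPM (4.97 to 6.26), 11.3 (10.2 to 12.5) and 15.2 (14.2 to 16.2). Its richest barcodes had 51, 312 and 392 UMIs. The wild type barcode with 392 Iglv1 UMIs had 12106 UMIs of Igkc, 1 of Iglc1, 60 of Iglc2 and 12 of Iglc3. The Foxn1Lin male barcode with 312 had 16085, 4, 52 and 4 of these. Of the 13 Jchain-rich barcodes whose leading light chain variable gene was Iglv1, 1, 3 and 9 were from the female, male and wild type libraries, and Igkc led the light constant genes of each. A noncoding gene on the opposite strand, 2010309G21Rik, overlaps Iglv1. It had 3, 3 and 10 UMIs in TEC outside the Ig-rich barcodes.

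**Figure D3:**
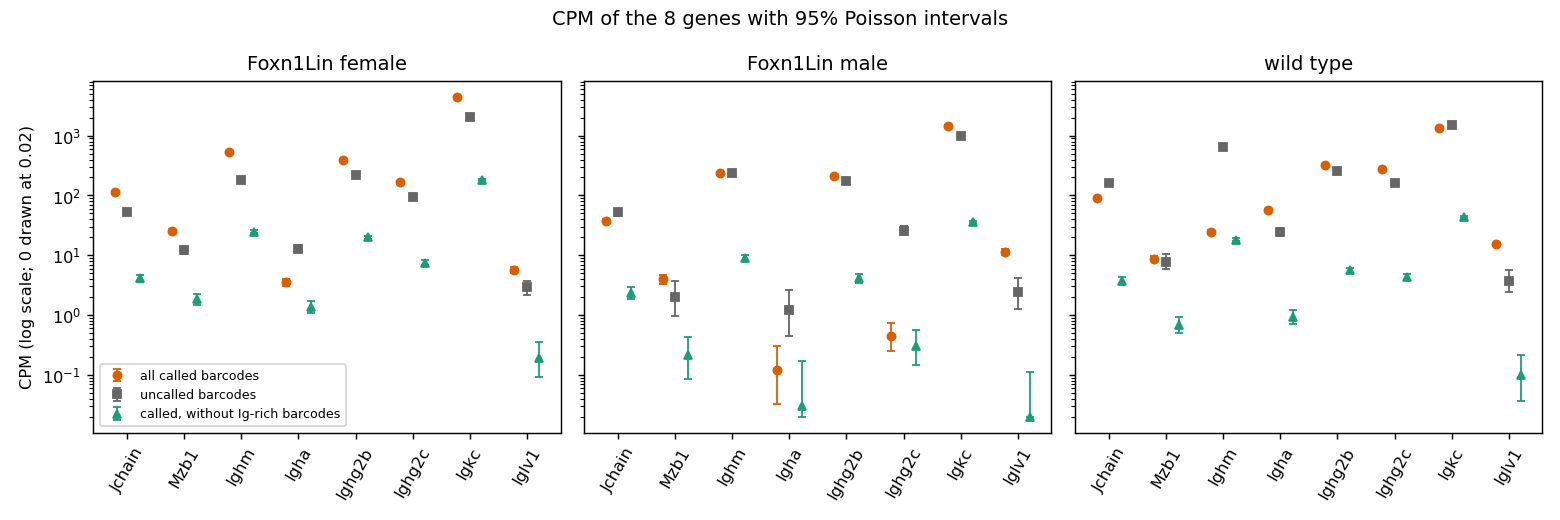
CPM (y axis, log scale, 0 drawn at 0.02) of the 8 genes in all called barcodes (circles), uncalled barcodes (squares) and called barcodes without the Ig-rich ones (triangles), 1 panel a library, with 95% Poisson intervals. Triangles lie below squares for each gene in each library. For Igkc the triangles are at 184, 36.0 and 44.3 CPM, against squares at 2031, 991 and 1510.

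Uncalled barcodes, which can hold free RNA, fragments and damaged cells, carried more of these transcripts than called barcodes outside the Ig-rich set. Jchain stood at 53.9 CPM (50.6 to 57.2), 52.0 (45.9 to 58.8) and 164 (154 to 174) in uncalled barcodes, against 4.14 (3.60 to 4.72), 2.31 (1.83 to 2.89) and 3.75 (3.28 to 4.27) in called barcodes without the Ig-rich ones. The uncalled level was 13.0, 22.5 and 43.7 times as high. For Igkc the ratio was 11.0, 27.5 and 34.1. The value depends on which uncalled barcodes are taken, since those of 10 to 100 UMIs held 5276, 978 and 1854 CPM of Igkc, against 2031, 991 and 1510 over all of them. Counting genes with at least 100 UMIs in either set, 7 of 7 of the genes in the Foxn1Lin female, 5 of 5 in the Foxn1Lin male and 6 of 6 in the wild type were 4-fold or more higher in uncalled barcodes. Over all genes tested the shares were 1.87%, 1.1% and 0.217%. Leaving out the Ig-rich barcodes removes these genes' own highest barcodes, so the direction of that comparison follows in part from the choice. The limit also admitted genes by their uncalled UMIs, the set in which they were higher, so the counts are a description only.

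The class values rested on the Ig-rich barcodes too. Igkc in TEC was 8746 CPM (8681 to 8812), 3115 (3077 to 3153) and 2010 (1992 to 2027), and 141 (133 to 150), 36.1 (32.1 to 40.4) and 35.9 (33.5 to 38.4) without them. In FB it was 4471, 338 and 165 CPM, and 135 (129 to 141), 41.6 (37.5 to 46.1) and 46.9 (43.6 to 50.5) without them. In EC it was 2149, 15.1 and 24.4 CPM, and 154 (147 to 161), 15.1 (12.6 to 18.0) and 24.4 (21.1 to 28.1) without them. Within the Foxn1Lin female library the 3 classes lay within 135 to 154 CPM once the Ig-rich barcodes were left out, with the EC interval above that of FB, while mixed barcodes stood at 194 and those of no class at 277. In the Foxn1Lin male and wild type the EC intervals lay below those of TEC and FB. Few barcodes carried much of these levels, which the intervals do not cover. The richest 1% held 56.8% (Foxn1Lin male) and 21.9% (wild type) of the Igkc UMIs of EC, and 64.3% and 39.1% of those of FB.

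The Jchain-rich barcodes fell in each class in some library. The Foxn1Lin female had 10 in 529 TEC (1.89%, 0.910 to 3.45), 5 in 2173 EC (0.230%, 0.0748 to 0.536), 10 in 1890 FB (0.529%, 0.254 to 0.971), 3 in 197 mixed and 11 in 3827 with no class. The Foxn1Lin male had 1 in 487 TEC, 0 in 862 EC, 2 in 878 FB, 1 in 64 mixed and 1 in 1292 with no class. The wild type had 5 in 1072 TEC, 0 in 895 EC, 1 in 1742 FB, 6 in 182 mixed (3.30%, 1.22 to 7.04) and 5 in 1587 with no class. A count of 0 allows a share of up to 0.427% and 0.411% of EC in the latter 2 libraries (upper exact bounds).

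Between libraries, the CPM of called barcodes was 4-fold or more apart for 3 of the 8 genes in the Foxn1Lin female against the Foxn1Lin male (Mzb1, Igha and Ighg2c higher in the female), against 2.71% of all genes. It was so for 2 of 8 in the Foxn1Lin female against the wild type (Ighm higher and Igha lower in the female), against 3.76%. It was so for 3 of 8 in the Foxn1Lin male against the wild type (Ighm higher, Igha and Ighg2c lower in the male), against 1.73%. Single barcodes held 98.2% of Igha in the wild type and 78.7% of Ighm in the Foxn1Lin male.

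Variable genes identify an antibody more closely than its constant genes do, because a B cell uses 1 of many variable segments for either chain. Of the 61 Jchain-rich barcodes, 35 had at least 3 UMIs of a leading heavy variable gene, 51 of a leading light variable gene and 34 of both. There were 22 distinct heavy and 20 distinct light leading genes. The 3' libraries read the constant end of the transcripts, so variable counts were low against constant ones, and segments of 1 family can share reads. The last 90 coding bases are shown for the 4 light chain segments that led 3 or more Jchain-rich barcodes and for Ighv12-3, which recurred with Igkv4-91. The codon of the conserved cysteine just before the third complementarity-determining region is in capitals.
Ighv12-3: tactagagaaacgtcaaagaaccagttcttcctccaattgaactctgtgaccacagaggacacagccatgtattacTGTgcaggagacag
Igkv4-91: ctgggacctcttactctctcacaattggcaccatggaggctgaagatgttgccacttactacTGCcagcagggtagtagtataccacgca
Igkv3-2: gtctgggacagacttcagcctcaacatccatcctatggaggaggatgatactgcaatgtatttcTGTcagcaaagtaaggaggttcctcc
Igkv12-41: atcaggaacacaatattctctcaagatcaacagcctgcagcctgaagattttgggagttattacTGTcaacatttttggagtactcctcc
Iglv1: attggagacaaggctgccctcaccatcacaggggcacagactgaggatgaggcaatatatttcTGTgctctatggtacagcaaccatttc
These segments lie at chr12:114366521-114366954 (Ighv12-3, minus), chr6:68768555-68769103 (Igkv4-91, minus), chr6:70698449-70699067 (Igkv3-2, plus), chr6:69858420-69858884 (Igkv12-41, minus) and at the Iglv1 position above, in GRCm38 with GENCODE vM21.

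Igkv3-2 led the light variable genes in 9 Jchain-rich barcodes, with 3 to 55 UMIs, and all 9 were Ighm-led barcodes of the Foxn1Lin female library. Their heavy variable genes were not all the same. With at least 3 UMIs, Ighv6-3 led 2 of them and Ighv1-53 led 2. Ighv12-3 was paired with Igkv4-91 in 2 Ighm-led barcodes of that library, with 451 and 160 Jchain UMIs. Ighv1-18 was paired with Iglv1 in 2 wild type barcodes, 1 led by Igha and 1 by Ighg2c, with 1184 and 1316 Jchain UMIs. Ighv1-9 with Iglv1 was the only recurrent pair found in more than 1 library, in 1 Ighm-led barcode of the Foxn1Lin female and 1 Ighg2b-led barcode of the wild type.

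The most frequent pair was Ighv1-64 with Igkv12-41, in the Foxn1Lin female. Over all Ig-rich barcodes it occurred in 5, each led by Ighg2b, with 87, 87, 10, 7 and 5 Jchain UMIs, so 2 of the 5 were not Jchain-rich. The leading stromal markers of these 5 differed, being EC in 1, FB in 3 and none in 1. Igkv12-41 also led in 2 further Jchain-rich barcodes, 1 of them led by Ighe and the other by Ighm with Ighv3-6. The pair of Ighv1-26 with Igkv10-96 occurred in 3 Ig-rich barcodes of the same library, led by Ighg2b or Ighg2c and with 55, 45 and 0 Jchain UMIs. Thymi were pooled, so whether barcodes with the same pair came from 1 mouse was not tested, and the rich barcodes are not replicates of a condition.

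Genes of the plasma cell programme were high in the Jchain-rich barcodes. Of 18 listed genes, with those of at least 100 UMIs counted, 15 of 18 in the Foxn1Lin female, 13 of 15 in the Foxn1Lin male and 15 of 18 in the wild type were 4-fold or more above the other called barcodes. Over all genes of at least 100 UMIs the shares were 1.03%, 1.07% and 1.94%. The median ratio of the listed genes was 8.07, 6.79 and 7.94, against 0.575, 0.197 and 0.610 over all genes. These barcodes had been chosen by Jchain in the same libraries, so the counts describe them.

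Among transcription factors and coactivators, Pou2af1, the octamer coactivator of B cells, was 73.3 and 84.3 times as high in the Foxn1Lin female and wild type. Irf4, which drives plasma cell fate, was 7.46, 9.12 and 8.04 times as high in the 3 libraries. Prdm1, encoding BLIMP-1, was 5.20, 2.02 and 3.65 times as high, and Xbp1, the regulator of the secretory machinery, 2.70, 6.13 and 5.07 times. The other called barcodes expressed Xbp1 as well, at 144, 171 and 163 CPM in the 3 libraries.

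Among genes of the secretory machinery, Derl3, of the pathway that removes misfolded proteins, was 60.8 and 64.8 times as high in the Foxn1Lin female and wild type. Txndc5, a protein disulfide isomerase, was 10.1, 15.1 and 7.95 times as high, and Ssr4, a subunit of the translocon-associated complex, 5.87, 7.48 and 7.65 times. Herpud1, induced by endoplasmic reticulum stress, was 3.61, 5.82 and 3.39 times as high. Outside the secretory machinery, Eaf2, an elongation factor partner, was 26.0, 37.3 and 44.5 times as high. Tent5c, a poly(A) polymerase that lengthens immunoglobulin transcripts, was 12.0, 31.5 and 19.9 times as high.

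Among surface proteins, Tnfrsf17, which encodes the survival receptor BCMA, was 22.9 and 12.6 times as high in the Foxn1Lin female and wild type. Slamf7 was 29.6, 63.3 and 31.4 times as high. Sdc1, which encodes CD138, was 2.96, 2.23 and 2.41 times as high, detected in 26 of 39, 4 of 5 and 8 of 17 Jchain-rich barcodes. The Foxn1Lin male ratio rests on few counts, with at most 3 Sdc1 UMIs in 1 of its Jchain-rich barcodes. Tnfrsf13b, which encodes TACI, a receptor for APRIL and BAFF, had 62, 15 and 50 UMIs in the Jchain-rich barcodes and 77, 23 and 100 in all others.

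Markers of other blood lineages were checked in the same barcodes. Of 10 plasma cell markers, those with at least 100 UMIs were 4-fold or more higher in 8 of 10, 5 of 7 and 8 of 10, a count that includes Jchain, which chose the barcodes, and is read against the same shares over all genes, 1.03%, 1.07% and 1.94%. Of the B cell markers with at least 100 UMIs, 6 of 9, 1 of 3 and 4 of 7 were 4-fold or more higher. Summed over the list they were lower in the Jchain-rich barcodes, at 825, 822 and 773 CPM. The other called barcodes stood at 1075, 1313 and 1133 CPM. Of this list, Ebf1 was 0.311 times as high in the Foxn1Lin female, where FB and EC outside the Ig-rich barcodes held 1511 and 1174 CPM of it. Cd79a, a part of the antigen receptor, had 180, 36 and 86 UMIs in the Jchain-rich barcodes, and Ms4a1, which encodes CD20, 24, 7 and 64. Cd79b, the partner of Cd79a in the receptor, was 28.7, 48.0 and 27.8 times as high. Pax5, the transcription factor of B cells before the plasma cell stage, had 0 UMIs in the Jchain-rich barcodes of each library and 151, 87 and 276 in the others. Cd22 also had 0 there, with only 18, 4 and 19 UMIs in the others. For Pax5 in the Foxn1Lin female, the upper 95% bound at 0 UMIs was 4.76 CPM, above the 2.87 CPM of the others. These counts of 0 therefore do not show a lower level in the Jchain-rich barcodes. Ptprc, which encodes CD45, was detected in 23 of the 61, with at most 19 UMIs. The summed T cell markers were at 0 in 29 of 39, 4 of 5 and 13 of 17, with highest sums of 66, 1 and 98. Of the T cell markers, 0 of 8, 0 of 7 and 2 of 8 were 4-fold or more higher, and of 3 markers of all blood cells 0, 0 and 2. None of the myeloid markers was, at 0 of 6, 0 of 4 and 0 of 6. Their summed level was above 0 in all but 1 of the 61, with medians of 36, 70 and 53 UMIs. It included Cd74, the invariant chain, which B cells and TEC also express and which had 1746, 203 and 1236 UMIs there, whereas Tyrobp was at 0 in all 61.

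Stromal transcripts were present in most of the Jchain-rich barcodes. A barcode was given a stromal lead where the sum of 5 markers of a class, without the gene that sets the class, reached the fifth percentile of that class, a measure set after the values were seen. Of the 61, TEC markers led in 12, EC markers in 4 and FB markers in 24, and 21 had no lead. Immunoglobulin made up a median of 51.8% of UMIs (11.1 to 71.5) in the 21 without a lead. It made up 11.9% (0.00512 to 46.3) in those with a TEC lead, 16.9% (0.310 to 54.0) with an EC lead and 27.9% (8.17 to 54.0) with an FB lead. The ranges overlapped. The labels give a multiplet rate of about 3.9% for these libraries, and whether barcodes with a stromal lead held more than 1 cell was not tested.

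**Figure D4:**
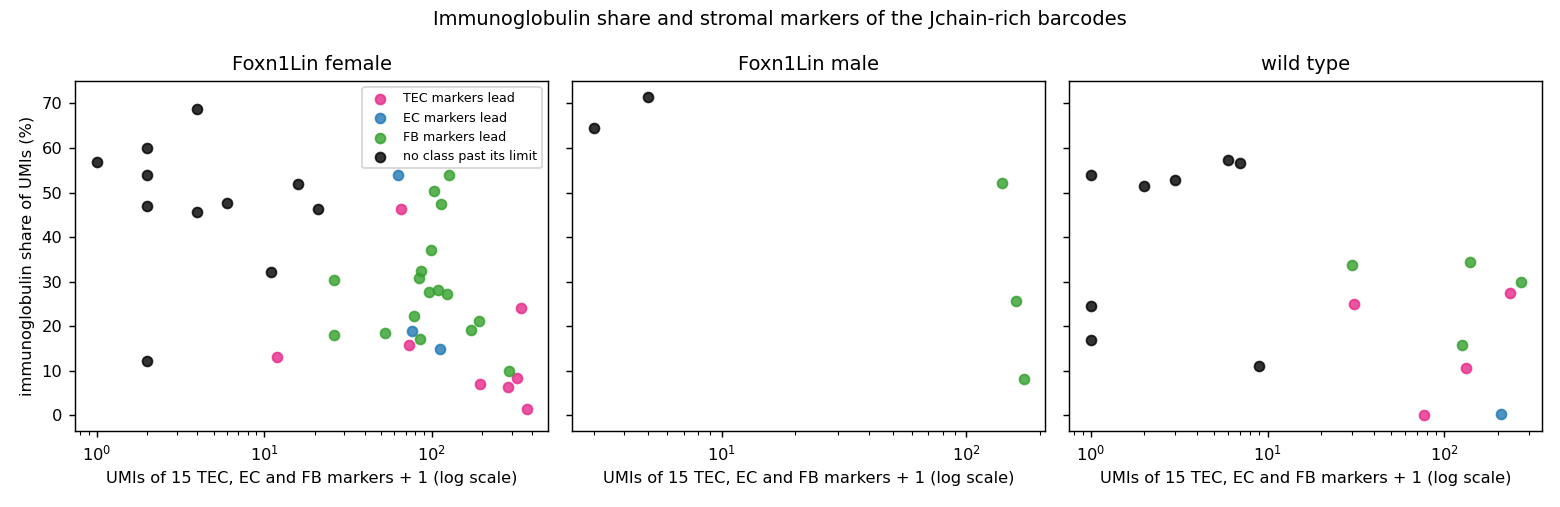
Immunoglobulin share of UMIs (y axis, percent) against the summed UMIs of 15 TEC, EC and FB markers plus 1 (x axis, log scale) for each Jchain-rich barcode, coloured by the class whose markers lead, 1 panel a library. Black points, without a lead, reach 68.8%, 71.5% and 57.4% at few marker UMIs.

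Epcam alone placed barcodes among TEC that carried little else of that lineage. Of the 16 Jchain-rich barcodes of the TEC class, 6 had a TEC lead and 10 had none. These 10 held 2 to 13 Epcam UMIs, at most 6 UMIs of H2-Aa and 4 keratins together, and a median immunoglobulin share of 55.2% (24.4 to 71.5). In the 6 with a TEC lead the median share was 7.32%.

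Jchain with few immunoglobulin UMIs was seen in a TEC of the wild type. A TEC-class barcode of 39034 UMIs held 15 Jchain UMIs, 2 Igkc UMIs and no heavy chain UMI, with 72 UMIs of the 5 TEC markers. It was the only Jchain-rich barcode without a heavy chain. Outside the Ig-rich barcodes, 10 of 1066 wild type TEC held 2 or more Jchain UMIs, up to 7, as did 10 of 1741 wild type FB. All 10 of these TEC and 5 of these FB had at most 2 Igkc UMIs, but few TEC had more in any case, since only 112 of the 1066 held 2 or more. In the Foxn1Lin female and Foxn1Lin male, 1 of 517 and 1 of 486 TEC held 2 or more. The level of Jchain in TEC outside the Ig-rich barcodes was 2.89 CPM (1.81 to 4.38), 1.09 (0.497 to 2.06) and 2.80 (2.17 to 3.55), no higher than in FB at 4.61 (3.57 to 5.85), 4.42 (3.15 to 6.05) and 5.56 (4.46 to 6.86).

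Iglc3, a lambda constant gene, was higher in TEC than in FB or EC once the Ig-rich barcodes were left out. In TEC it stood at 14.7 CPM (12.1 to 17.7), 22.7 (19.6 to 26.2) and 15.4 (13.9 to 17.0). In FB it was 0.275 (0.0750 to 0.705), 1.13 (0.544 to 2.09) and 0.320 (0.104 to 0.746), and in EC 1.13, 0.605 and 0.748. The intervals of TEC did not overlap those of EC or FB in any of the 3 libraries. Mixed barcodes stood at 4.28, 28.0 and 13.1 CPM, and uncalled barcodes stood at 5.81, 5.67 and 12.5 CPM. Igkc in the same TEC was at 141, 36.1 and 35.9 CPM, against 135, 41.6 and 46.9 in FB, so the counts of Iglc3 and Igkc did not keep 1 ratio over the classes.

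Iglc3 was detected in 39, 35 and 91 TEC barcodes, with at most 13, 23 and 35 UMIs in 1 of them. The richest 1% of TEC held 44.6%, 46.8% and 47.7% of its UMIs. The richest 1% held 23.4%, 26.6% and 30.7% in TEC with an Aire UMI and 70.8%, 79.6% and 75.9% in TEC without one, so few barcodes carried the levels below. TEC with at least 1 UMI of Aire, the medullary regulator of tissue-restricted genes, stood at 20.2 CPM (15.6 to 25.8), 46.2 (38.9 to 54.6) and 27.5 (24.2 to 31.0), against 10.8 (7.96 to 14.3), 9.28 (6.87 to 12.3) and 7.67 (6.31 to 9.22) in TEC without one. The intervals did not overlap in any library, although TEC with an Aire UMI were also deeper, with a median of 13932, 21816 and 22413 UMIs against 9566.5, 12167 and 14636. Without thinning, Iglc3 was detected in 13.5%, 21.8% and 19.1% of the former and 4.22%, 2.45% and 3.69% of the latter. Igkc differed with Aire in the same direction, at 166 CPM against 124, 69.2 against 17.2 and 58.7 against 21.3. Iglc3 was named after its values were seen.

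**Figure D5:**
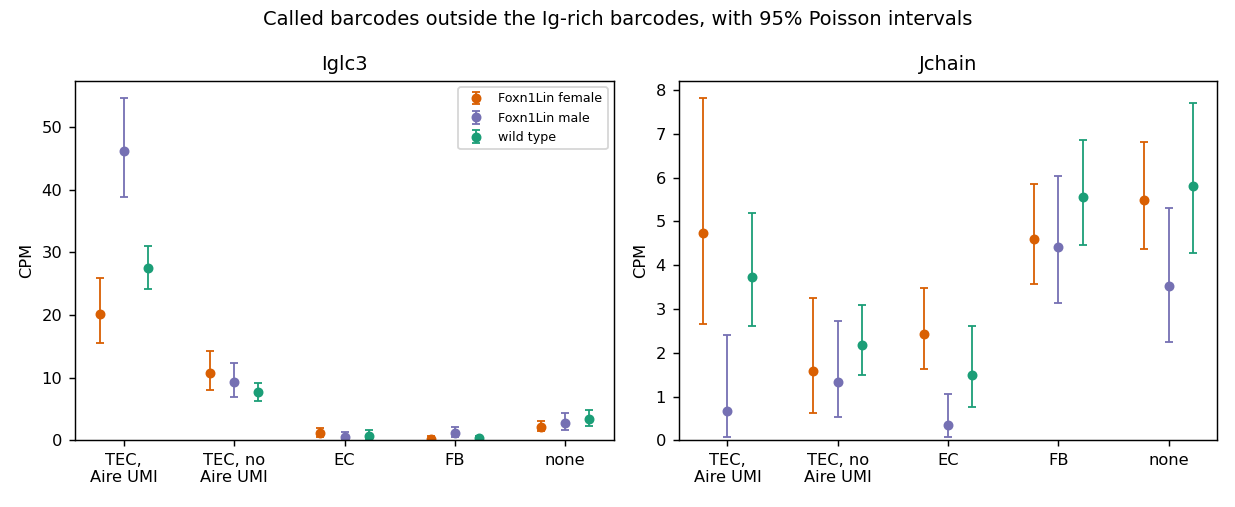
CPM (y axis, linear) of Iglc3 (left) and Jchain (right) in called barcodes outside the Ig-rich set, for TEC with or without an Aire UMI, EC, FB and barcodes of no class (x axis), with 95% Poisson intervals and 1 colour a library. Iglc3 is highest in TEC with an Aire UMI, at 20.2, 46.2 and 27.5 CPM, whereas Jchain lies between 0.363 and 5.82 CPM over these classes.

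Iglc3 (chr16:19065230-19065681) and Iglc2 (chr16:19198396-19200351), both on the minus strand, are near-identical, with 96.5% of aligned coding bases the same and 11 differing. A stretch of 120 bases from the end of both coding sequences shows how few bases separate their reads, with the 2 differing bases of this stretch in capitals.
Iglc2: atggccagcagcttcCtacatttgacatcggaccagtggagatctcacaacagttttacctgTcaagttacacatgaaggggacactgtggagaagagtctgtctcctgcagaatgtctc
Iglc3: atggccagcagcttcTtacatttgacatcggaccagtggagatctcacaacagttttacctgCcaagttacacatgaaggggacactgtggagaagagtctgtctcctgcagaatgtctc
The division of reads between them is therefore uncertain. Iglc2 in the same TEC was at 1.71 CPM (0.910 to 2.92), 1.33 (0.663 to 2.37) and 1.29 (0.879 to 1.84). In the lambda-led Jchain-rich barcode the order was the opposite, with 5647 UMIs of Iglc2 and 883 of Iglc3.

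Stromal classes outside the Ig-rich barcodes held transcripts of ligands that are known to keep plasma cells in place and alive. Cxcl12, the ligand of Cxcr4, was highest in EC, at 1170, 680 and 815 CPM, against 337, 81.1 and 218 in TEC and 273, 134 and 213 in FB. Tnfsf13b, which encodes BAFF, was highest in FB, at 29.9, 50.3 and 86.5 CPM, against 5.00, 6.15 and 3.59 in TEC. Tnfsf13, which encodes APRIL, lay between 12.6 and 34.0 CPM in the 3 classes. Il6 was at 162, 315 and 271 CPM in FB, 66.8, 264 and 238 in EC and 2.89, 1.69 and 2.46 in TEC. Uncalled barcodes of the Foxn1Lin female held 484 CPM of Cxcl12, 9.33 of Tnfsf13b, 20.6 of Tnfsf13 and 58.8 of Il6. Cxcl12 in TEC and FB of that library, and the other 3 ligands in its TEC, lay below these levels. Of the receptors, Cxcr4 had 5, 6 and 8 UMIs in the Jchain-rich barcodes and Tnfrsf13c, the BAFF receptor, 19, 7 and 9. In those of the Foxn1Lin female, Cxcr4 stood at 6.45 CPM (2.10 to 15.1), against 3.63 in the other called barcodes. Tnfrsf13c stood at 24.5 CPM (14.8 to 38.3) there, against 0.494.

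Receptors that move or bind antibody were split between classes. Pigr, which carries polymeric IgA and IgM across epithelium with the J chain as its contact, was at 50.2, 16.5 and 63.5 CPM in TEC and at most 1.24 in EC and FB of the 3 libraries. Fcgrt, the neonatal Fc receptor that recycles IgG, was at 143, 119 and 86.5 CPM in EC and 231, 132 and 121 in FB, against 25.1, 22.1 and 19.7 in TEC. Fcgr2b, the inhibitory IgG receptor, was at 15.9, 58.8 and 68.5 CPM in FB and at most 1.31 in TEC and EC.

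Genes other than the 8 and the immunoglobulin genes were ranked by the share of their called UMIs in Jchain-rich barcodes of the 3 libraries together, among 21730 genes with at least 20 UMIs. Those barcodes held 0.902% of all UMIs and 95.8% of those of Jchain, and 74.2% of those of Mzb1, which was not ranked. Most of the 10 highest genes rested on 1 barcode. Tpbpa, Gm5861, Bpifa2, Tmem52b, Lce3f, Mmp12, Mageb3 and Actl6b had shares from 50.0% to 100%, and in each all UMIs within the rich barcodes came from 1 of them. The 2 others were Gm30211, at 70.1%, a noncoding gene that overlaps Igkc on the same strand and whose reads cannot be told from it with certainty, and Ly6c2, at 62.0% (2398 of 3867 UMIs). Ly6c2, which encodes a Ly-6C surface antigen found on plasma cells, was detected in 44 of the 61 barcodes with up to 507 UMIs. Further down the ranking, Slpi, which encodes a secreted protease inhibitor, stood at 13 with 49.0% (3662 of 7472 UMIs, at most 458 in 1 barcode), Ms4a1 at 16, Pou2af1 at 17, Cd79a at 19, Derl3 at 26, Tnfrsf17 at 113, Xbp1 at 662 and Sdc1 at 1137.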

How the data were processed

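Gene-by-barcode count matrices deposited by the authors were used for 3 libraries, with called barcodes (filtered) and all barcodes (raw) per library. They are UMI counts made with Cell Ranger (7.01 per the labels) on mm10 with added reporter sequences, and were not normalized. The filtered headers name version 7.0.1 and the raw headers Cell Ranger 4, but the counts of all called barcodes were identical in both, with 0 values that differed. Each group has 1 library.

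UMIs were summed per library and class and divided by all UMIs of the same barcodes (CPM, per 1000000), with exact Poisson and Clopper-Pearson 95% intervals. No test was run, no doublets were removed, and cells were not treated as replicates. Thinning used 2000 UMIs and left out shallower barcodes. Ratios between barcode sets used genes with at least 100 UMIs, and a fold of 4 was counted. For the comparison with uncalled barcodes, that limit was set on the uncalled UMIs alone. Named genes were the 8 genes, fixed lists of constant genes, plasma cell, niche and marker genes, the leading variable genes and the 10 genes most like Jchain. The genes and lists were chosen with earlier results of these data known. Steps were tested on simulated data. Positions and coding sequences are from GENCODE vM21 (GRCm38). Python 3.11.15, numpy 2.4.6, scipy 1.17.1, pandas 2.3.3 and matplotlib 3.10.9 were used.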

Additional observations from a re-analysis of the deposited data

How the results depend on the processing

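No paired analysis was possible because each group has 1 library, and for the same reason no replicate could be left out. The count of Jchain-rich barcodes stayed within 1.5 times of 39, 5 and 17 (Foxn1Lin female, Foxn1Lin male, wild type) under a Jchain limit of 5 or 20 UMIs, removal of shallow high-mitochondrial barcodes, or 5% immunoglobulin in place of Jchain, except 10 in the Foxn1Lin male at a limit of 5 and 11 in the wild type at 20.

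Igkc in TEC moved from 8746, 3115 and 2010 CPM to 8534, 3504 and 1804 with classes at 1 UMI, to 5976 and 2227 (Foxn1Lin female and wild type) at 3 UMIs and to 8455, 4449 and 2308 with classes allowed to overlap. It was 7009, 36.1 and 1426 without the richest barcode, so that 1 barcode set the Foxn1Lin male value, and 8845 in the Foxn1Lin female per UMI outside the immunoglobulin loci. Without the Jchain-rich barcodes it was 1164, 36.1 and 399.7, and without the Ig-rich ones, an alternative chosen after seeing the data, 141, 36.1 and 35.9. Uncalled barcodes of 10 to 100 UMIs gave 5276 and 1854 CPM of Igkc in the Foxn1Lin female and wild type. The share of barcodes with Igkc was 26.2%, 3.66% and 6.33% after thinning and 23.4%, 2.93% and 5.46% at 2 or more UMIs. The richest 0.5% of barcodes held 95.8%, 98.6% and 97.5% of Igkc UMIs, the richest 5% 97.3%, 99.5% and 98.9%, and the richest 1% without Jchain-rich barcodes 83.8%, 72.0% and 86.9%. Of 1055 further values, 538 stayed within their counting intervals. Depth limits genes of a few UMIs, such as Igha in the Foxn1Lin male with 4.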
